A study of Homo sapiens with 15 samples.

Results

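The DNA replication machinery was followed as 43 genes in MelJuSo, a human melanoma cell line, whose RNA was sequenced in 15 libraries from 5 derived lines. The genes were listed by role, and their symbols were matched to the deposited gene identifiers through release 29 of the GENCODE annotation. All 43 were found among the 58721 annotated genes of the tables. There are 10 genes of origin licensing (ORC1, ORC6, CDC6, CDT1 and MCM2 to MCM7), 6 of helicase activation (MCM10, CDC45 and GINS1 to GINS4), 18 of the replication fork, 3 of Okazaki fragment maturation (FEN1, LIG1 and DNA2), 4 of nucleotide supply (RRM1, RRM2, TYMS and TK1), and the regulators E2F1 and UHRF1. The fork genes are PCNA, RFC1 to RFC5, POLA1, POLA2, PRIM1, PRIM2, POLD1 to POLD3, POLE, POLE2 and RPA1 to RPA3.

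The study tested Cas12a as a gene activator. All 5 lines express a nuclease-dead Cas12a with a 5xALFA tag and a nanobody that binds the tag. The VP64 guide line carries 5xALFA-dCas12a-VP64, nanobody-VP64 and a cassette of 3 guides against CD4, and the p65 guide line carries the same with nanobody-p65. The VP64 guide-free line and the p65 guide-free line carry these proteins without the cassette. The fifth line, without an activation domain and called the activator-free line below, carries 5xALFA-dCas12a, the nanobody alone and no guides. VP64 is a synthetic activation domain made of repeats of a herpesvirus peptide, and p65 is the activating part of the NF-kappaB subunit RELA. There are 3 libraries per line, lettered A to C. Cells were collected at confluency and the cell mixture was aliquoted before freezing. The labels do not say whether the letters are separate cultures, so the p-values reflect no more than the spread among these libraries, which may be technical. Each set of constructs is held by a single line, so what was expressed in a line and the history of that line cannot be told apart.

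Origins are licensed in G1, when the origin recognition complex, CDC6 and CDT1 load the MCM2-7 helicase onto DNA as inactive double rings. In S phase, CDC45 and the GINS complex join MCM2-7 and MCM10 helps to open the helicase, after which DNA polymerase alpha with its primase lays down primers. RFC then loads the PCNA clamp, DNA polymerases delta and epsilon copy the strands, RPA covers single-stranded DNA, and FEN1, DNA2 and LIG1 finish Okazaki fragments. Ribonucleotide reductase (RRM1 and RRM2), thymidylate synthase (TYMS) and thymidine kinase (TK1) supply deoxynucleotides. Many of these genes are transcribed at the G1/S border by E2F factors, of which E2F1 is a member and which the retinoblastoma protein family restrains. UHRF1 brings the maintenance DNA methyltransferase to newly copied DNA.

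Libraries held 15643705 to 23072512 expected counts, and the member gene with the fewest counts in any library still had 67. All 43 genes passed the filter on low counts and are part of every count below. CD4, the targeted gene, averaged 924 ± 27.02 TPM in the VP64 guide line and 1002 ± 56.1 in the p65 guide line (SD, n = 3). It averaged 4.24 ± 0.397 TPM in the VP64 guide-free line, 5.31 ± 0.382 in the p65 guide-free line and 1.57 ± 0.906 in the activator-free line. The targeted gene was thus high in the 6 libraries labelled as having guides.

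Of 9 melanoma markers, SOX10 and S100B were high and MLANA was near 0, at a mean of at most 0.207 TPM in any line. Summed over the 9 markers, levels were 446 to 534 TPM in the VP64 guide line, 312 to 420.0 in the p65 guide line, 236 to 260.0 in the VP64 guide-free line, 207 to 228 in the p65 guide-free line and 233 to 241 in the activator-free line. SOX10, S100B and S100A1 make up most of these sums, and the 8 markers that could be tested did not move as one. With guides 6 were higher and none lower in the VP64 lines, and 4 higher and 1 lower in the p65 lines. S100B was higher by log2 fold changes of 1.65 and 1.51 and SOX10 by 0.54 and 0.45, DCT was lower with p65 (-0.68, adjusted p = 0.00166), and MITF passed in neither (0.11 and 0.04, adjusted p = 0.526 and 0.823). In p65 lines PMEL was lost without guide library B or guide-free library C (adjusted p = 0.12 and 0.124), and in VP64 lines TYRP1 was lost without guide library A or B or guide-free library C (0.0597, 0.11 and 0.109). Over 13 markers of other cell types, sums were 7.95 to 10.5 TPM in the VP64 guide line, 15.1 to 16.6 in the p65 guide line, 5.26 to 9.12 in the VP64 guide-free line, 8.25 to 13.2 in the p65 guide-free line and 10.9 to 12.9 in the activator-free line. Of the 7 that could be tested, COL1A1, a collagen of fibroblasts, was higher with guides (0.86 with VP64, adjusted p = 8.14e-05, and 1.46 with p65, adjusted p = 4.16e-08). COL3A1, also a collagen of fibroblasts, passed in neither (1.35 and -0.42, adjusted p = 0.0928 and 0.644). Against the activator-free line, the monocyte gene CD14 (-1.72 with VP64 and -1.44 with p65) and the endothelial gene PECAM1 (-1.32 and -1.53) were lower in both guide-free lines. Their levels were low. CD14 averaged 0.75 (VP64) and 1.03 TPM (p65) in the guide-free lines against 3.11 in the activator-free line, and PECAM1 0.57 and 0.44 against 1.31. The epithelial genes EPCAM and CDH1 passed in neither of these comparisons. PTPRC, of white blood cells, was lower with p65 (-1.14, adjusted p = 0.0193), a call lost without p65 guide-free A or B or activator-free B (0.0822 to 0.102). The effective-length offset ended the calls of TYRP1, of PMEL with p65, of COL1A1 with VP64 (0.67, adjusted p = 0.167) and of PTPRC. The part of these markers in the results below was not tested. The T cell genes CD3D and CD3E had means of 0 to 0.0200 TPM.

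In bulk RNA, fewer cells in S phase and less RNA per cell cannot be told apart, and the density of the cultures was not recorded beyond confluency. Of the 43 genes, 26 overlap another annotated gene and 8 have an annotated pseudogene. The sources used here do not say whether counting used strand, so values of genes such as PRIM1 (which overlaps NACA), FEN1 (FADS2 and TMEM258), TYMS (ENOSF1), MCM7 (AP4M1), RFC4 (EIF4A2) and RPA3 (UMAD1) could include reads of the neighbour.

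Promoters of 7 genes are shown because they carry, or lack, the E2F-type word that is counted over all members further on. Each is a window of 300 bases, 250 before and 50 after the RefSeq transcription start, in the direction of the gene, and capitals mark the words TTTCCCGC, TTTCGCGC, TTTGCCGC and TTTGGCGC on either strand. The genes were taken as the member with the largest mean guide effect in each role among those with a window in the table, with E2F1 added. In maturation that was FEN1, while DNA2 had the larger effect.
CDC6 (GRCh38.p14, chr17:40287629-40287928, plus strand): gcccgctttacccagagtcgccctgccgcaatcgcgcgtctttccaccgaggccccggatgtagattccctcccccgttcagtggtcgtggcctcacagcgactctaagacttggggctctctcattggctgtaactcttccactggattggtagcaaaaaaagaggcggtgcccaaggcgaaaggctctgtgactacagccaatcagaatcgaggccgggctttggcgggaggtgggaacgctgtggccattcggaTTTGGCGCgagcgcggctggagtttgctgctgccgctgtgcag
GINS1 (GRCh38.p14, chr20:25407423-25407722, plus strand): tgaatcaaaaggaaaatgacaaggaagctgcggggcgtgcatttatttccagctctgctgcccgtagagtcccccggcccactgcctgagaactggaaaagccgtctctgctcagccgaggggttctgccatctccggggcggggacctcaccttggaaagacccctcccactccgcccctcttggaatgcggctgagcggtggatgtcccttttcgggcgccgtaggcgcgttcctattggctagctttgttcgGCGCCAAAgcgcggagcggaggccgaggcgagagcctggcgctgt
POLE (GRCh38.p14, chr12:132687293-132687592, minus strand): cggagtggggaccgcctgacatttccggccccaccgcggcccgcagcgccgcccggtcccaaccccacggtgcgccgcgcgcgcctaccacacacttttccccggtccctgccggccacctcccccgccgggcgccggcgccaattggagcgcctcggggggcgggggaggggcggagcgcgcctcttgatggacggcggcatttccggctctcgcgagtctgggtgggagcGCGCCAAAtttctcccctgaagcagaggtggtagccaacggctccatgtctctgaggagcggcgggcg
RRM2 (GRCh38.p14, chr2:10122318-10122617, plus strand): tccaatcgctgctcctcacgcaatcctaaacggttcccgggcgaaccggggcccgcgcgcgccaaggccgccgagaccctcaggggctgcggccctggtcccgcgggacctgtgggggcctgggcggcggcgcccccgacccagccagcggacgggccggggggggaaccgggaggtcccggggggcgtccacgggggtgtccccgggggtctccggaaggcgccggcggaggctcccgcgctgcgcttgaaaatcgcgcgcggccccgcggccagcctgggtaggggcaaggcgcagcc
FEN1 (GRCh38.p14, chr11:61792661-61792960, plus strand): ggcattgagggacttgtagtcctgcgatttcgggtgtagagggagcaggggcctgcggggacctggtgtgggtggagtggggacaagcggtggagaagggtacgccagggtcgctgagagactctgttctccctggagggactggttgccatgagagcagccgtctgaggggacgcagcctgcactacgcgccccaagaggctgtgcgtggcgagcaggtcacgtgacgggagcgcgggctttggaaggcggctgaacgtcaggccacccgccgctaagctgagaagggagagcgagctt
UHRF1 (GRCh38.p14, chr19:4909251-4909550, plus strand): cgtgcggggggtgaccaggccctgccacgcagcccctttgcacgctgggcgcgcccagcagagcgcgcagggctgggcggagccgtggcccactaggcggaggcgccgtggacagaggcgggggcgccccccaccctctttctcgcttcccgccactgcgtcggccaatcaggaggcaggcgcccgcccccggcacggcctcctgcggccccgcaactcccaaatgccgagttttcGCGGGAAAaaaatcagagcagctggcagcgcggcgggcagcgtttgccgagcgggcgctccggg
E2F1 (GRCh38.p14, chr20:33686336-33686635, minus strand): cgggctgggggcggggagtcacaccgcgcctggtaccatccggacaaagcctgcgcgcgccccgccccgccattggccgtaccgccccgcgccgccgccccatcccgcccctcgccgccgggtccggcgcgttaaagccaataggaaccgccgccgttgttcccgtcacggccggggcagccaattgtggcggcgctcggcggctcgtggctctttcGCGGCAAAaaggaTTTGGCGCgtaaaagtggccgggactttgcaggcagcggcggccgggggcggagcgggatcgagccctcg
E2F1 itself holds 2 such words close to its start, CDC6, GINS1, POLE and UHRF1 hold 1 each, and the windows of RRM2 and FEN1 hold none. A match describes these letters and not a site in use.

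Replication genes were lower in the lines with CD4 guides than in the matching lines without guides. In the VP64 lines 37 of the 43 genes fell and none rose, and the median gene was at 79.7% of its guide-free level. In the p65 lines 39 fell and none rose, and the median gene was at 77.2%. Among all 14961 genes tested, 21.3% fell and 19.3% rose with guides in the VP64 lines, and 20.2% fell and 18.7% rose in the p65 lines. Their median log2 fold changes were -0.0004 and -0.0095, against -0.33 and -0.37 over the replication genes. A call is an adjusted p under 0.05 in edgeR's quasi-likelihood test. No replication gene was higher with guides at an unadjusted p under 0.05, and the Wald test of DESeq2 gave the same counts of 37 and 39 falling genes and 0 rising ones. Under the effective-length offset the counts of falling genes were 28 and 36. There were 37 genes that fell in both guide comparisons, as did 15.8% of all genes. The exceptions were GINS4, POLD1, POLD2, RPA1, RPA3 and LIG1.

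The lines with activators but no guides were in turn below the activator-free line. With VP64, 39 of 43 genes were lower and none higher, with a median gene at 76.4%, where 24.0% of all genes were lower and 23.6% higher. With p65, 38 were lower and none higher, with a median gene at 78.4%, where 24.9% of all genes were lower and 24.7% higher. No member was higher at an unadjusted p under 0.05 in either comparison, and DESeq2 called 39 and 37 lower and 0 higher. Under the effective-length offset 34 and 30 were lower. These 2 comparisons use the same 3 activator-free libraries. Set against those libraries, all 43 genes were lower in the VP64 guide line, with a median gene at 60.3%, and all 43 in the p65 guide line, with a median gene at 60.1%. Of all genes, 27.1% were lower and 26.0% higher in the VP64 guide line, and 27.5% lower and 25.8% higher in the p65 guide line. Counting the guide and the guide-free comparisons of both nanobodies together, 32 of the 43 genes were lower in all 4, as were 3.61% of all genes.

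Most genes separated the libraries without overlap. Every VP64 guide library lay below every VP64 guide-free library for 36 genes, and 25.4% of all genes did so. The count was 40 in the p65 lines, where 24.3% of all genes did so. Against the activator-free line it was 40 for the VP64 guide-free line (29.5% of all genes), 39 for the p65 guide-free line (29.1%), and 43 for each guide line (30.0% and 31.0%). For 31 of the 43 genes every guide library was below every guide-free activator library, and every one of those was below every activator-free library. Among all genes 3.73% had this stepwise order. Summed over the 43 genes, TPM was 3177 to 3329 in the VP64 guide line and 3021 to 3255 in the p65 guide line. It was 3735 to 3981 in the VP64 guide-free line, 3918 to 4052 in the p65 guide-free line and 4919 to 5029 in the activator-free line.

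**Figure D1:**
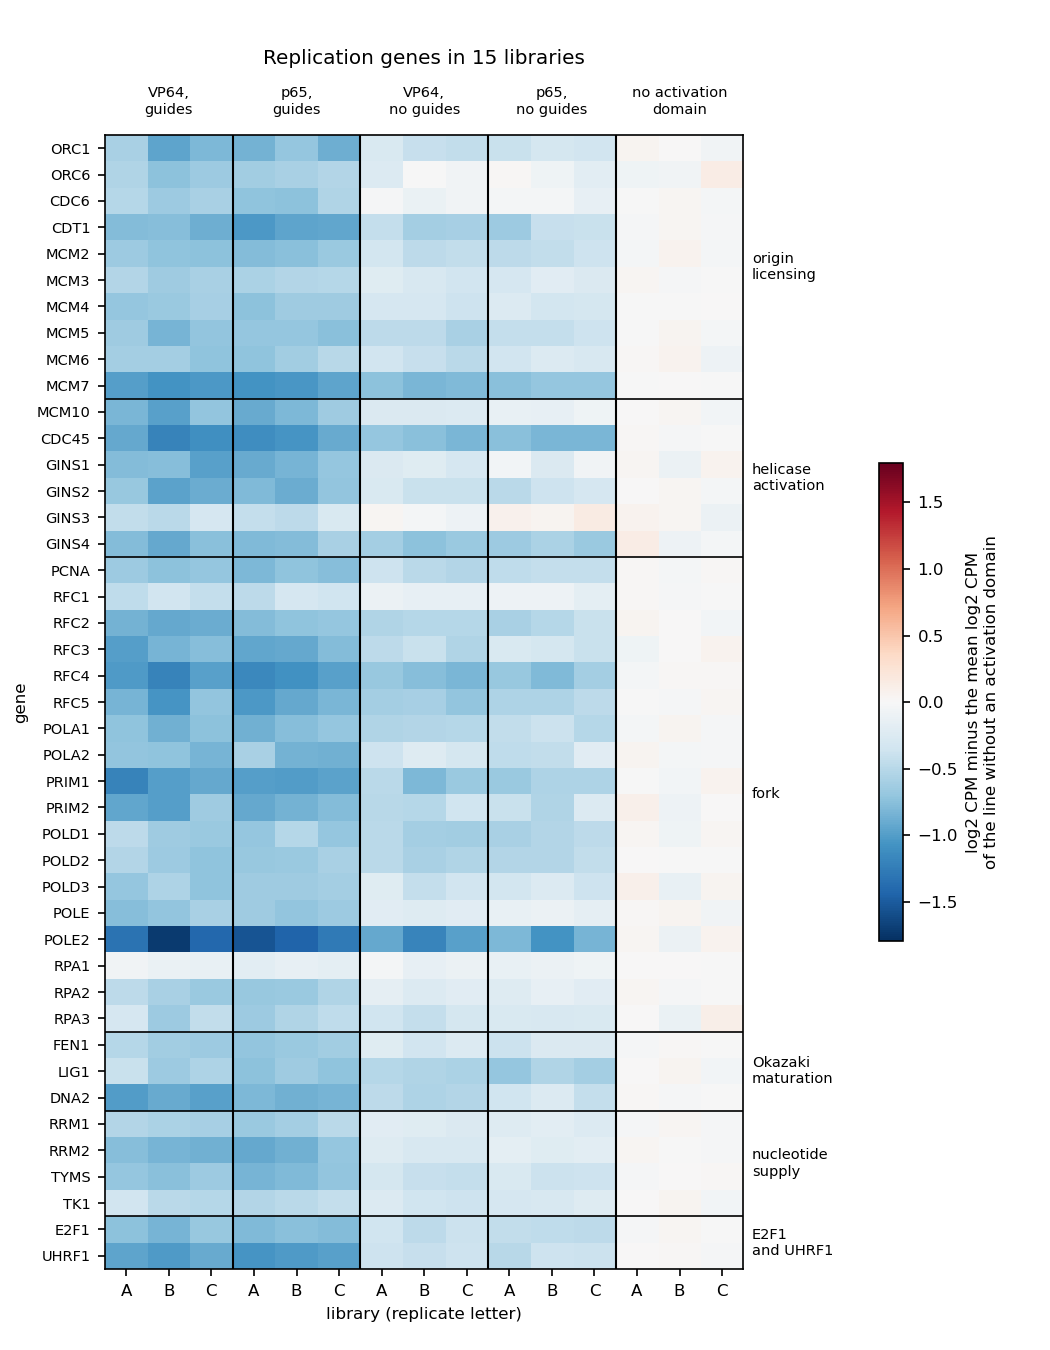
Heat map of the 43 replication genes (rows, by role) in the 15 libraries (columns, by line), coloured by log2 CPM minus the mean log2 CPM of the activator-free line. Most rows are darkest blue in the 6 guide libraries on the left, paler in the 6 guide-free activator libraries and near 0 in the 3 libraries on the right, while RPA1 is pale throughout and LIG1 and POLD1 are alike in guide and guide-free lines.

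**Figure D2:**
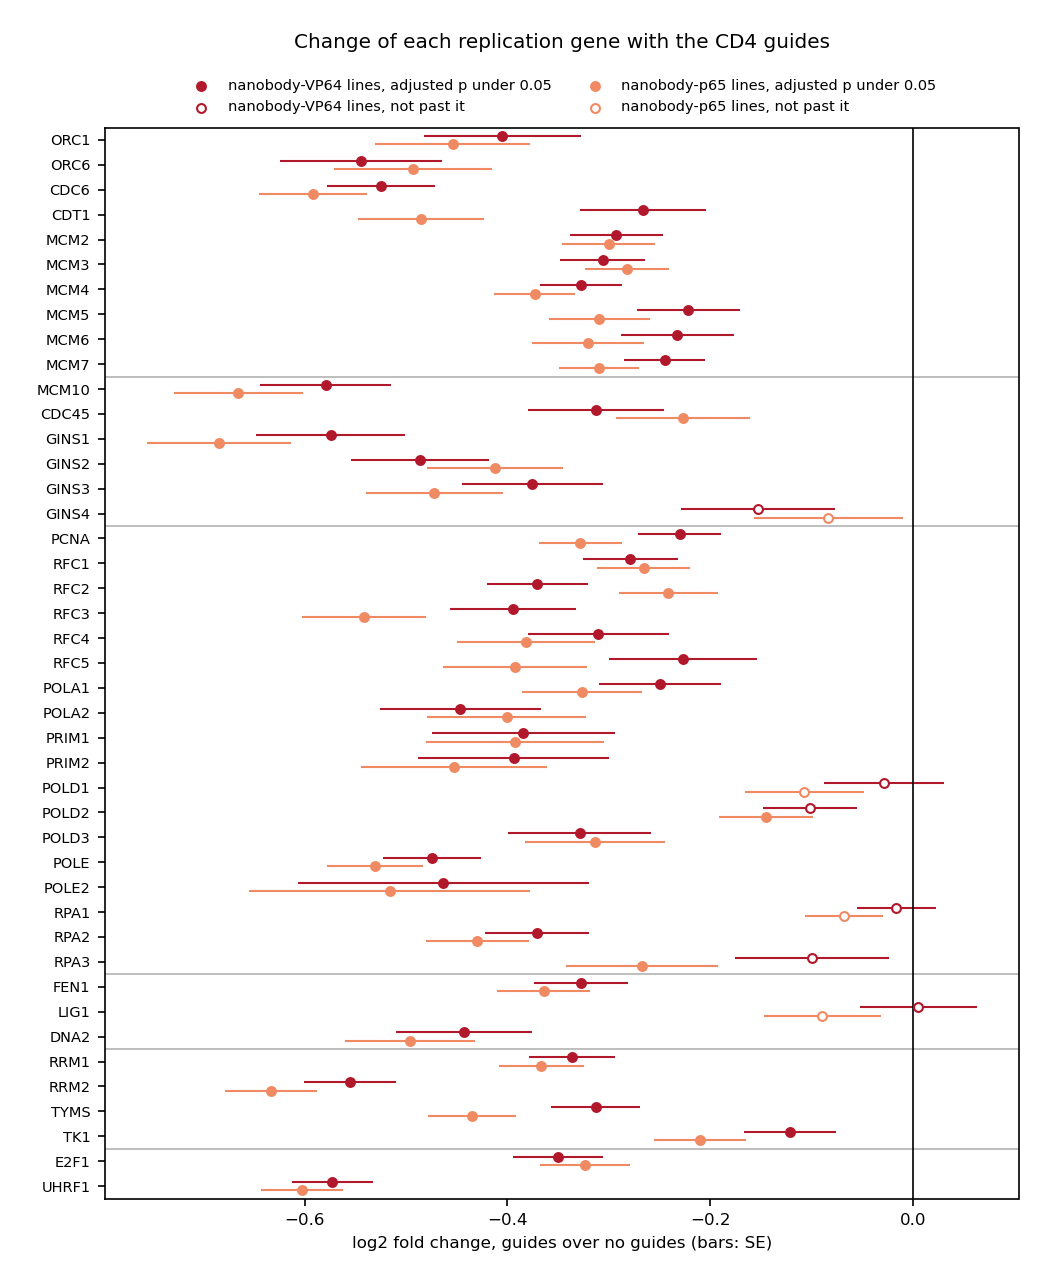
Log2 fold change with guides over without guides for each gene, in the nanobody-VP64 lines (dark red) and the nanobody-p65 lines (orange), with SE bars and 3 libraries per line. Filled points have an adjusted p under 0.05. LIG1, RPA1, POLD1 and GINS4 have open points in both pairs of lines.

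All 10 genes of origin licensing fell with guides in both pairs of lines, by a median log2 fold change of -0.30 with VP64 and -0.35 with p65. CDC6, the ATPase that helps load the helicase (chromosome 17, 40287633 to 40304657, plus strand, hg38), had 81.4, 74.1 and 77.6 CPM in the VP64 guide line and 70.6, 70.2 and 80.5 in the p65 guide line (CPM are counts per 1e+06 library counts with TMM scaling, in the order of libraries A, B and C). It had 116, 108 and 112 CPM in the VP64 guide-free line, 114, 114 and 106 in the p65 guide-free line and 116, 119.5 and 114 in the activator-free line. Every guide library was thus lower than every other library, while the guide-free activator libraries overlapped the activator-free ones. Its log2 fold change with guides was -0.52 ± 0.0532 with VP64 (SE, n = 3 libraries per line, adjusted p = 6.83e-08) and -0.59 ± 0.0529 with p65 (adjusted p = 1.17e-08). Between the guide-free lines and the activator-free line it was -0.06 ± 0.0512 with VP64 and -0.07 ± 0.0511 with p65, neither of which passed the test.

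ORC6, the smallest subunit of the origin recognition complex, behaved alike. Guide libraries had 24.5, 21.4 and 22.8 CPM with VP64 and 23.2, 23.9 and 24.8 with p65. Guide-free libraries had 30.2, 35.6 and 34.3 CPM with VP64 and 36.2, 33.9 and 31.2 with p65, and the activator-free ones had 33.99, 34.2 and 39.3. All 6 guide libraries were below the other 9, which overlapped each other. The log2 fold change with guides was -0.54 ± 0.0797 with VP64 and -0.49 ± 0.0778 with p65, against -0.11 and -0.09 for the guide-free lines over the activator-free line. ORC1, the largest subunit, fell with guides, at -0.41 and -0.45 and was also lower in both guide-free lines, at -0.38 with VP64 and -0.35 with p65.

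CDT1, the partner of CDC6 in loading, had 60.6, 60.9 and 56.3 CPM in the VP64 guide line and 50.7, 53.8 and 54.5 in the p65 guide line. Levels were 76.99, 68.1 and 68.9 CPM in the VP64 guide-free line, 66.2, 77.7 and 78.5 in the p65 guide-free line and 103, 107 and 102 in the activator-free line. The 3 kinds of line did not overlap. Log2 fold changes with guides were -0.27 ± 0.0623 with VP64 and -0.49 ± 0.0620 with p65. Under an offset for effective gene length the VP64 value was -0.16 and no longer passed (adjusted p = 0.0651).

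The helicase subunits MCM2 to MCM7 moved together with guides and unequally without them. With guides their log2 fold changes lay between -0.33 (MCM4) and -0.22 (MCM5) in the VP64 lines, and between -0.37 (MCM4) and -0.28 (MCM3) in the p65 lines. Between the guide-free lines and the activator-free line they ran down to -0.79 with VP64 and -0.71 with p65, both for MCM7, while MCM3 was at -0.28 and -0.25. MCM7 (chromosome 7, 100092728 to 100101940, minus strand) had 254, 239.8 and 247 CPM in the VP64 guide line and 239, 244 and 262 in the p65 guide line. It had 301, 286 and 291 CPM in the VP64 guide-free line, 298, 313 and 312 in the p65 guide-free line and 503, 506 and 504 in the activator-free line. Levels in that last line were well above all 12 others, and the guide lines lay below the guide-free ones. Its log2 fold change against that line was -1.03 ± 0.0399 in the VP64 guide line and -1.02 ± 0.0398 in the p65 guide line. Per length, MCM7 was the most abundant subunit in every line, at 132 ± 2.25 TPM in the VP64 guide line and 259 ± 4.29 in the activator-free line (SD, n = 3), and MCM5 the least, at 29.2 ± 2.67 and 46.04 ± 1.39 TPM.

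MCM2 had 216, 207 and 204 CPM in the VP64 guide line and 199, 203 and 215 in the p65 guide line. Against these stood 271, 247 and 250.1 CPM in the VP64 guide-free line, 245, 251 and 264 in the p65 guide-free line and 333, 357 and 332 in the activator-free line. Its libraries followed the stepwise order with no overlap. Log2 fold changes with guides were -0.29 ± 0.0457 with VP64 and -0.30 ± 0.0456 with p65. MCM6 had 96.97, 96.5 and 89.7 CPM in the VP64 guide line, 89.7, 96.3 and 105 in the p65 guide line, 116, 111 and 106 in the VP64 guide-free line, 117, 125 and 121 in the p65 guide-free line and 151, 155 and 139 in the activator-free line. It fell with guides, at -0.23 and -0.32, again without overlap. The guide calls of MCM4 and MCM5 in the VP64 lines were lost under the effective-length offset, with adjusted p = 0.19 and 0.101, and the same offset took MCM4 in the p65 guide-free line to -0.0526 (adjusted p = 0.801).

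Among the genes of helicase activation, 5 of 6 fell with guides in each pair of lines, by a median of -0.43 with VP64 and -0.44 with p65, and GINS4 did not pass. MCM10 (chromosome 10, 13161554 to 13211104, plus strand), which acts at the opening of the helicase, had 41.2, 36.9 and 44.6 CPM in the VP64 guide line and 38.8, 41.4 and 46.5 in the p65 guide line. It had 60.7, 60.97 and 61.2 CPM in the VP64 guide-free line, 66.2, 65.9 and 69.2 in the p65 guide-free line and 73.3, 74.8 and 70.3 in the activator-free line. The guide libraries stood apart from all others. Log2 fold changes with guides were -0.58 ± 0.0649 with VP64 (adjusted p = 2.76e-07), the lowest of the 43 genes in those lines, and -0.67 ± 0.0633 with p65 (adjusted p = 3.14e-08).

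GINS1 had the lowest value in the p65 lines. Its libraries held 30.2, 30.6 and 26.5 CPM in the VP64 guide line and 27.8, 29.1 and 32.2 in the p65 guide line, against 43.4, 44.7 and 42.02 CPM in the VP64 guide-free line, 50.1, 43.4 and 49.9 in the p65 guide-free line and 53.1, 48.6 and 54.6 in the activator-free line. All guide libraries were below all others, and the p65 guide-free libraries overlapped the activator-free ones. Log2 fold changes with guides were -0.57 ± 0.0731 with VP64 and -0.69 ± 0.0712 with p65. The other GINS subunits divided. GINS2 fell at both steps, GINS3 fell with guides (-0.38 and -0.47) and was at -0.03 with VP64 and 0.09 with p65 in the guide-free lines, neither past the test.

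GINS4 showed the reverse pattern. It had 23.6, 21.5 and 24.1 CPM in the VP64 guide line and 23.5, 23.6 and 27.1 in the p65 guide line, against 26.7, 24.5 and 25.7 CPM in the VP64 guide-free line, 25.96, 27.4 and 25.5 in the p65 guide-free line and 44.4, 38.3 and 39.6 in the activator-free line. The p65 guide and guide-free libraries overlapped, and all 12 activator libraries were below the 3 others. With guides its log2 fold change was -0.15 ± 0.0757 with VP64 (95% interval -0.31 to 0.00) and -0.08 ± 0.0735 with p65 (-0.24 to 0.07), and in the guide-free lines it was -0.67 and -0.63. Under the effective-length offset the guide-free values did not pass, with adjusted p = 0.0587 for VP64 and, at -0.29, 0.428 for p65.

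CDC45, the helicase cofactor, had 37.8, 31.1 and 33.2 CPM in the VP64 guide line and 32.8, 34.2 and 38.2 in the p65 guide line. It had 43.9, 42.2 and 40.3 CPM in the VP64 guide-free line, 42.4, 40.5 and 40.4 in the p65 guide-free line and 72.6, 70.4 and 71.5 in the activator-free line. Here the wide gap lay between the activator-free line and all others, at -0.76 ± 0.0620 with VP64 and -0.80 ± 0.0619 with p65. With guides CDC45 fell further, at -0.31 ± 0.0672 and -0.23 ± 0.0661. The p65 call was lost without library A of the p65 guide line (-0.18, adjusted p = 0.0612).

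**Figure D3:**
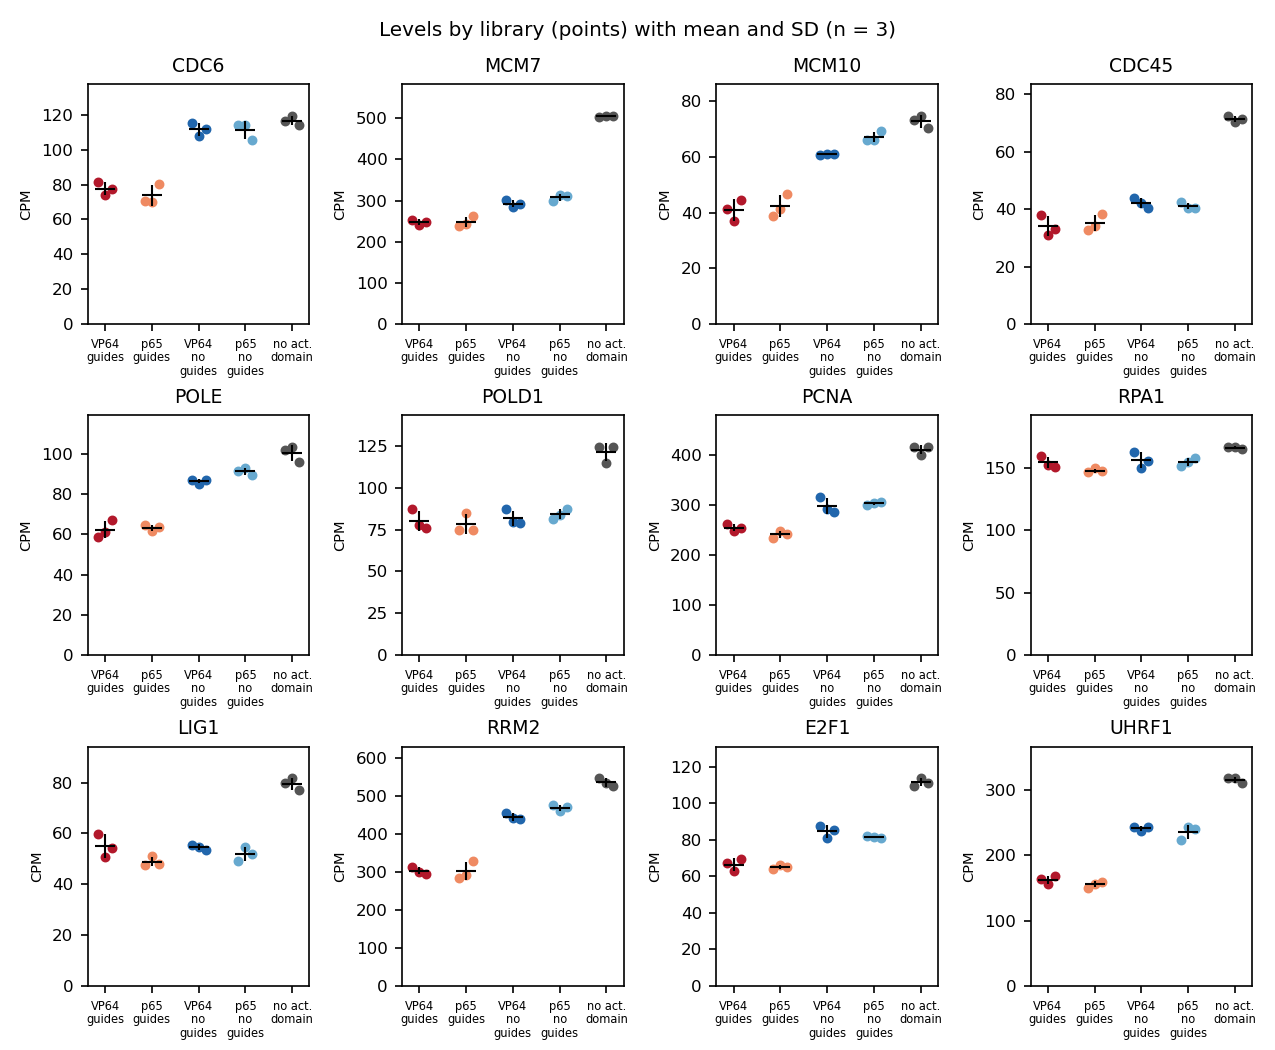
CPM of 12 replication genes in each library (points), with the mean and SD of each line (n = 3), on axes that start at 0. CDC6, MCM10, POLE and RRM2 have low guide lines on the left and similar or mildly lower guide-free lines, while MCM7, CDC45, POLD1 and LIG1 have a high line without an activation domain on the right.

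Of 18 genes of the replication fork, 14 fell with guides in the VP64 lines and 16 in the p65 lines, by medians of -0.32 and -0.36. In the guide-free lines 17 with VP64 and all 18 with p65 were lower than in the activator-free line, by medians of -0.46 and -0.42. The DNA polymerases did not follow a single pattern. POLE, the catalytic subunit of the leading-strand polymerase (chromosome 12, 132623753 to 132687365, minus strand), had 58.8, 61.1 and 66.95 CPM in the VP64 guide line and 64.4, 61.4 and 63.8 in the p65 guide line. It had 87.2, 85.2 and 87.1 CPM in the VP64 guide-free line, 91.4, 93.05 and 89.7 in the p65 guide-free line and 102, 104 and 95.8 in the activator-free line. The guide libraries lay far below the rest, and the other lines followed each other closely without overlap. POLE fell with guides, at -0.47 ± 0.0481 with VP64 (adjusted p = 6.83e-08) and -0.53 ± 0.0473 with p65 (adjusted p = 1.14e-08), and in the guide-free lines, at -0.21 and -0.14. The last of these calls was lost when a p65 guide-free library (C) or library A or B of the activator-free line was left out (adjusted p = 0.0789, 0.0764 and 0.106), and POLE in the VP64 guide-free line was lost under the effective-length offset (adjusted p = 0.219).

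POLE2, its accessory subunit, was the least abundant fork gene per length in the 4 activator lines, at 5.55 ± 1.63 TPM in the VP64 guide line, and had the lowest values of all 43 genes against the activator-free line. It had 4.57, 3.46 and 4.29 CPM in the VP64 guide line, 3.91, 4.21 and 4.73 in the p65 guide line, 6.04, 5.02 and 5.84 in the VP64 guide-free line, 6.51, 5.46 and 6.42 in the p65 guide-free line and 11.8, 10.7 and 12.003 in the activator-free line. The 3 kinds of line did not overlap. Log2 fold changes were -1.49 ± 0.134 in the VP64 guide line and -1.42 ± 0.131 in the p65 guide line over the activator-free line, and -0.46 ± 0.144 and -0.52 ± 0.139 for guides over no guides. The VP64 guide call was lost without library B of the VP64 guide line (adjusted p = 0.0992) and without library A of the VP64 guide-free line (adjusted p = 0.0616). It was also lost under the effective-length offset in both pairs of lines (adjusted p = 0.218 and 0.153).

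In DNA polymerase delta, which copies the lagging strand, the wide gap lay above the guide-free lines for POLD1. POLD1, its catalytic subunit (chromosome 19, 50384204 to 50418016, plus strand), had 87.2, 77.9 and 76.2 CPM in the VP64 guide line and 75.1, 85.05 and 75.1 in the p65 guide line. It had 87.1, 79.7 and 79.01 CPM in the VP64 guide-free line and 81.3, 83.998 and 87.7 in the p65 guide-free line, so the guide and guide-free libraries overlapped. The activator-free line stood above them all, at 125, 115 and 125 CPM. The log2 fold change with guides was -0.03 ± 0.0594 with VP64 (95% interval -0.15 to 0.10) and -0.11 ± 0.0588 with p65 (-0.23 to 0.02), while the guide-free values were -0.57 ± 0.0574 and -0.53 ± 0.0571. Without library B of the p65 guide line the p65 guide value was -0.17 and passed (adjusted p = 0.0399). POLD2 was at -0.10 and -0.14 with guides, the second of which passed and was lost without library A or B of the p65 guide line or library C of the p65 guide-free line (adjusted p = 0.0681, 0.0592 and 0.113). POLD3 fell with guides, at -0.33 and -0.31, and was lower in the guide-free lines by similar amounts.

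Primase and polymerase alpha, which make the primers, fell at both steps in all 4 subunits. With guides their log2 fold changes lay between -0.45 (POLA2) and -0.25 (POLA1) in the VP64 lines and between -0.45 (PRIM2) and -0.33 (POLA1) in the p65 lines. In the guide-free lines PRIM1 was lowest, at -0.65 with VP64 and -0.60 with p65. The effective-length offset ended the guide calls of PRIM2 in the VP64 lines (adjusted p = 0.097) and of POLA2 in the p65 lines (-0.16, adjusted p = 0.26).

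PCNA, the sliding clamp (chromosome 20, 5114953 to 5126626, minus strand), had 262, 248 and 254 CPM in the VP64 guide line and 234, 248 and 243 in the p65 guide line. It had 317, 293 and 286 CPM in the VP64 guide-free line, 300.2, 304 and 306 in the p65 guide-free line and 417, 400.3 and 416 in the activator-free line. Its libraries stepped downward by kind of line with no overlap. Log2 fold changes with guides were -0.23 ± 0.0408 with VP64 and -0.33 ± 0.0407 with p65, and those of the guide-free lines were -0.46 ± 0.0404 and -0.44 ± 0.0403.

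All 5 subunits of RFC, the clamp loader, fell with guides in both pairs of lines. RFC2 had 57.7, 54.9 and 56.5 CPM in the VP64 guide line and 60.5, 63.02 and 64.6 in the p65 guide line, against 71.97, 73.3 and 73.2 CPM in the VP64 guide-free line, 69.9, 73.2 and 79.02 in the p65 guide-free line and 108, 105 and 100.5 in the activator-free line. RFC4 had 27.1, 23.9 and 27.98 CPM in the VP64 guide line, 24.6, 25.9 and 27.96 in the p65 guide line, 34.3, 32.2 and 31.1 in the VP64 guide-free line, 34.4, 31.9 and 36.1 in the p65 guide-free line and 53.7, 55.7 and 55.9 in the activator-free line. Both genes separated the 3 kinds of line. RFC4 was at -1.07 ± 0.0665 in the VP64 guide line and -1.07 ± 0.0657 in the p65 guide line over the activator-free line, whereas RFC1, the large subunit, was at -0.41 and -0.38. RFC1 in the guide-free lines was called narrowly (-0.13 and -0.11, adjusted p = 0.0231 and 0.0391). With p65 it was lost under every omission of a library of that comparison, with adjusted p = 0.0596 to 0.217, and with VP64 under every omission but that of library A of the VP64 guide-free line, with 0.0511 to 0.115. RFC5 fell, at -0.23 in the VP64 lines, and without library B of the VP64 guide line this was -0.13 (adjusted p = 0.165). It was also lost without library A or B of the VP64 guide-free line (adjusted p = 0.0629 and 0.0782).

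RPA1, the large subunit of the complex that covers single-stranded DNA, differed least from the activator-free line of all 43 genes in the guide lines. It had 160.0, 153 and 151 CPM in the VP64 guide line and 147, 149.9 and 148 in the p65 guide line. It had 163, 150.4 and 155 CPM in the VP64 guide-free line, 152, 155 and 159 in the p65 guide-free line and 167, 167 and 165 in the activator-free line. The VP64 guide and guide-free libraries overlapped. Its log2 fold change with guides was -0.02 ± 0.0386 with VP64 (95% interval -0.10 to 0.06) and -0.07 ± 0.0385 with p65 (-0.15 to 0.01). RPA2 fell in both pairs of lines, at -0.37 and -0.43, and RPA3 was at -0.10 with VP64 (not past the test) and -0.27 with p65. Per length, the subunits averaged 50.05 ± 1.34 (RPA1), 51.98 ± 2.59 (RPA2) and 70.2 ± 10.5 TPM (RPA3) in the VP64 guide line, and 51.7 ± 0.0833, 76.2 ± 1.55 and 91.8 ± 8.72 TPM in the activator-free line. RPA1 in the VP64 guide line was called against the activator-free line (-0.11, adjusted p = 0.0234) and was lost without library B or C of the VP64 guide line or any library of the activator-free line, with adjusted p = 0.084 to 0.2. In the p65 guide-free line (-0.10, adjusted p = 0.031) it was lost without library A or B of that line or any activator-free library, with adjusted p = 0.0644 to 0.137. In the VP64 guide-free line it was not called (-0.09, adjusted p = 0.0559) and passed without library A of that line (adjusted p = 0.0336).

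In Okazaki fragment maturation, FEN1, the flap endonuclease, had 161, 148 and 146 CPM in the VP64 guide line and 139.7, 144 and 149 in the p65 guide line, against 196, 180.4 and 194 CPM in the VP64 guide-free line, 176, 191 and 191 in the p65 guide-free line and 226, 233 and 229 in the activator-free line. DNA2, a nuclease and helicase that trims long flaps, had 16.3, 17.4 and 16.5 CPM in the VP64 guide line, 18.6, 17.8 and 18.3 in the p65 guide line, 23.6, 22.1 and 22.6 in the VP64 guide-free line, 25.5, 27.5 and 24.3 in the p65 guide-free line and 33.2, 32.2 and 32.4 in the activator-free line. Both followed the stepwise order. With guides FEN1 fell, at -0.33 ± 0.0464 with VP64 and -0.36 ± 0.0463 with p65, and DNA2, at -0.44 ± 0.0671 and -0.50 ± 0.0644. The VP64 value of DNA2 sat at the threshold under the effective-length offset (adjusted p = 0.0501).

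LIG1, the ligase that seals the fragments (chromosome 19, 48115445 to 48170603, minus strand), did not share the guide step. It had 59.98, 50.8 and 54.2 CPM in the VP64 guide line and 47.5, 50.99 and 48.2 in the p65 guide line. It had 55.5, 54.9 and 53.5 CPM in the VP64 guide-free line, 49.3, 54.7 and 52.01 in the p65 guide-free line and 79.7, 81.9 and 76.9 in the activator-free line. In CPM, guide and guide-free libraries overlapped in both pairs of lines, and all 12 were below the 3 others. Per length, every VP64 guide library (42.97 to 50.57 TPM) was above every VP64 guide-free library (38.4 to 41.51). The p65 libraries overlapped per length too, at 37.66 to 43.22 TPM with guides and 33.13 to 42.94 without. The log2 fold change with guides was 0.0055 ± 0.0571 with VP64 (95% interval -0.11 to 0.13) and -0.09 ± 0.0580 with p65 (-0.21 to 0.03), while the guide-free values were -0.54 ± 0.0556 and -0.61 ± 0.0556 (adjusted p = 5.63e-08 and 7.57e-09). Under the effective-length offset its value in the VP64 guide line over the activator-free line was -0.24 in place of -0.53.

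All 4 genes of nucleotide supply fell with guides in both pairs of lines, by medians of -0.32 with VP64 and -0.40 with p65, and all 4 were lower in the guide-free lines, by -0.30 and -0.25. RRM2, the S-phase subunit of ribonucleotide reductase (chromosome 2, 10120698 to 10131419, plus strand), had 313, 300.3 and 295 CPM in the VP64 guide line and 284, 293 and 329 in the p65 guide line. It had 456, 441 and 438 CPM in the VP64 guide-free line, 476, 461 and 469.6 in the p65 guide-free line and 548, 533 and 526 in the activator-free line. No kinds of line overlapped. RRM2 fell with guides, at -0.56 ± 0.0454 with VP64 (adjusted p = 2.94e-09) and -0.63 ± 0.0453 with p65 (adjusted p = 3.61e-10), about as much as CDC6.

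RRM1, the constant subunit, had 197, 192 and 189 CPM in the VP64 guide line and 179, 186 and 204 in the p65 guide line, against 247, 244 and 238 CPM in the VP64 guide-free line, 243, 250.3 and 239 in the p65 guide-free line and 280.4, 291 and 281 in the activator-free line. It fell without overlap, at -0.34 ± 0.0423 and -0.37 ± 0.0422 with guides. Per length, RRM2 stood above RRM1 in every line, at 183 ± 9.08 against 113 ± 5.12 TPM in the VP64 guide line and 316 ± 41.1 against 138 ± 12.2 TPM in the activator-free line. Under the effective-length offset RRM1 in the VP64 guide-free line was at -0.0460 in place of -0.23 and was not called (adjusted p = 0.752), and RRM1 and RRM2 in the p65 guide-free line were not called (adjusted p = 0.192 and 0.1).

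TYMS, which makes thymidylate, had 229, 220.0 and 234 CPM in the VP64 guide line and 207, 213 and 225 in the p65 guide line. It had 297, 277 and 274 CPM in the VP64 guide-free line, 305, 282 and 284 in the p65 guide-free line and 365, 371 and 374 in the activator-free line. It separated the 3 kinds of line, with log2 fold changes of -0.31 ± 0.0436 and -0.43 ± 0.0435 with guides. TK1, which salvages thymidine, changed least in this role, at -0.12 with VP64 and -0.21 with p65. Its VP64 call was lost without library B or C of the VP64 guide line (adjusted p = 0.131 and 0.226), without library A or B of the VP64 guide-free line (0.302 and 0.0599), when only the libraries compared were fitted (0.0599) or genes under a mean of 1 CPM were left out (0.0661), and under the effective-length offset (0.409).

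The regulator E2F1 (chromosome 20, 33675683 to 33686404, minus strand) had 67.01, 62.7 and 69.4 CPM in the VP64 guide line and 64.2, 66.3 and 64.9 in the p65 guide line. It had 87.2, 80.8 and 85.4 CPM in the VP64 guide-free line, 82.2, 81.6 and 80.8 in the p65 guide-free line and 109, 114 and 111 in the activator-free line. The 3 kinds of line did not overlap, and the guide step and the activation-domain step differed by 0.09 ± 0.0574 on the log2 scale (adjusted p = 0.208). Log2 fold changes with guides were -0.35 ± 0.0448 with VP64 and -0.32 ± 0.0445 with p65, and those of the guide-free lines were -0.40 ± 0.0427 and -0.45 ± 0.0427.

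UHRF1 (chromosome 19, 4903080 to 4962154, plus strand) had 164, 156 and 168 CPM in the VP64 guide line and 151, 156 and 159.9 in the p65 guide line. It had 244, 238 and 244 CPM in the VP64 guide-free line, 224, 244 and 241 in the p65 guide-free line and 318, 319 and 310.4 in the activator-free line. These libraries too followed the stepwise order without overlap. UHRF1 fell with guides, at -0.57 ± 0.0403 with VP64 (adjusted p = 3.03e-10) and -0.60 ± 0.0402 with p65 (adjusted p = 1.31e-10). Against the activator-free line it was at -0.96 ± 0.0402 in the VP64 guide line and -1.02 ± 0.0402 in the p65 guide line.

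**Figure D4:**
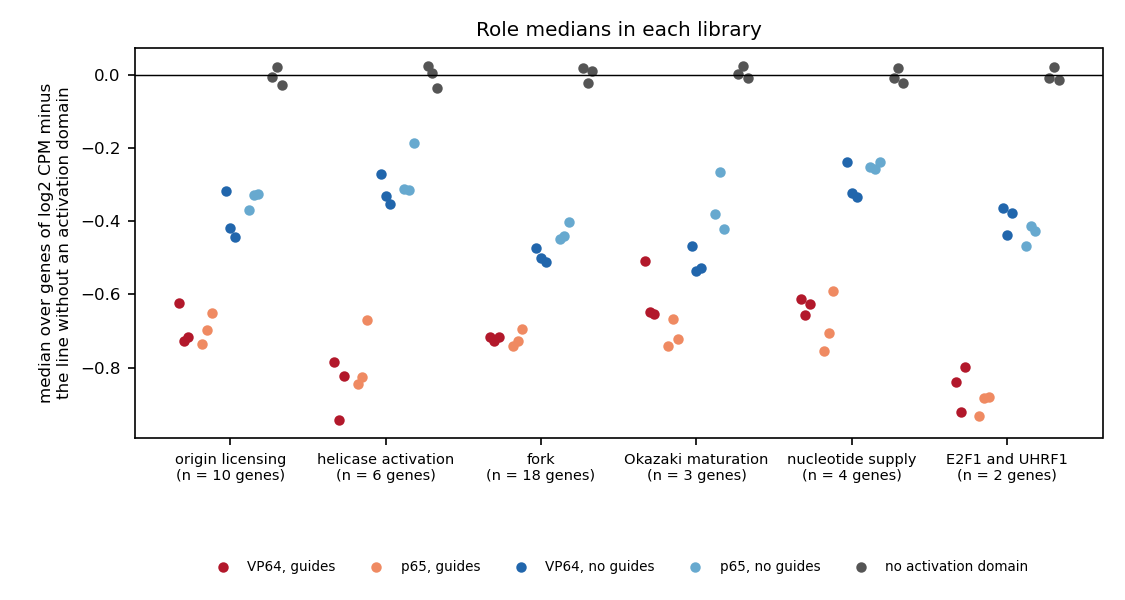
Median over the genes of each role of log2 CPM minus the mean log2 CPM of the activator-free line, 1 point per library, with lines in the order of the legend. In all 6 roles the guide libraries are below -0.5, and the guide-free activator libraries lie between them and the activator-free line except in Okazaki maturation, where guide and guide-free libraries meet.

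The guide step and the activation-domain step were then compared gene by gene. For each gene the mean guide effect of both nanobodies was set against the mean difference of both guide-free lines from the activator-free line, a comparison added after the values were seen. The guide step was the lower of these for 10 genes and the activation-domain step for 13. Over all genes tested 25.3% and 23.4% passed in these directions, so the members' counts were near the background. The genes with the lower guide step were CDC6 (difference -0.49 ± 0.0683 on the log2 scale, SE, adjusted p = 3.38e-06), GINS3 (-0.45 ± 0.0877), MCM10 (-0.44 ± 0.0814), GINS1 (-0.44 ± 0.0910), ORC6 (-0.42 ± 0.0998), RRM2 (-0.36 ± 0.0594), POLE (-0.33 ± 0.0612), RPA2 (-0.20 ± 0.0658), UHRF1 (-0.19 ± 0.0523) and RFC1 (-0.15 ± 0.0602). The genes with the lower activation-domain step were led by LIG1 (0.53 ± 0.0749, adjusted p = 3.8e-06), GINS4 (0.53 ± 0.0949), CDC45 (0.51 ± 0.0844), POLD1 (0.48 ± 0.0768), POLE2 (0.47 ± 0.174), MCM7 (0.47 ± 0.0524), POLD2 (0.39 ± 0.0607) and RFC4 (0.38 ± 0.0868), and also held RFC5, POLA1, RFC2, MCM5 and PCNA. By role, helicase activation had 3 of 6 genes in the first group and 2 in the second. The fork had 3 and 8 of 18, and licensing 2 and 2 of 10. These splits were not tested. RFC1 lost its call when any of 11 libraries was left out, with adjusted p = 0.056 to 0.11, namely A or C of the VP64 guide line, A of the p65 guide line, A or B of the p65 guide-free line and any of the VP64 guide-free and activator-free lines. MCM5 was lost without VP64 guide-free C or activator-free B (adjusted p = 0.062 and 0.0519) and RFC5 without VP64 guide-free C (0.0508). POLA1 was lost without p65 guide C, VP64 guide-free A or B, p65 guide-free C or activator-free B (adjusted p = 0.0534 to 0.0823), and POLE2 without p65 guide C, VP64 guide-free B, p65 guide-free B or activator-free A or C (0.0508 to 0.087). The effective-length offset ended the calls of GINS4 (0.30, adjusted p = 0.553), POLE (-0.26, 0.294) and RRM2 (-0.30, 0.0815), and of RFC1, RFC2, RFC5, POLA1 and POLE2. The guide-free lines enter both steps with opposite signs, so an error in them alone pushes the steps apart.

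The guide effect in the VP64 lines and the difference of the p65 guide-free line from the activator-free line have no library in common. Across the 43 genes Pearson's r between these log2 fold changes was -0.293 and Spearman's rho -0.353. Across all 14961 genes tested they were -0.163 and -0.167. The genes are not independent replicates, and the 12 libraries behind the points are shared by all genes, so these values are a description.

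**Figure D5:**
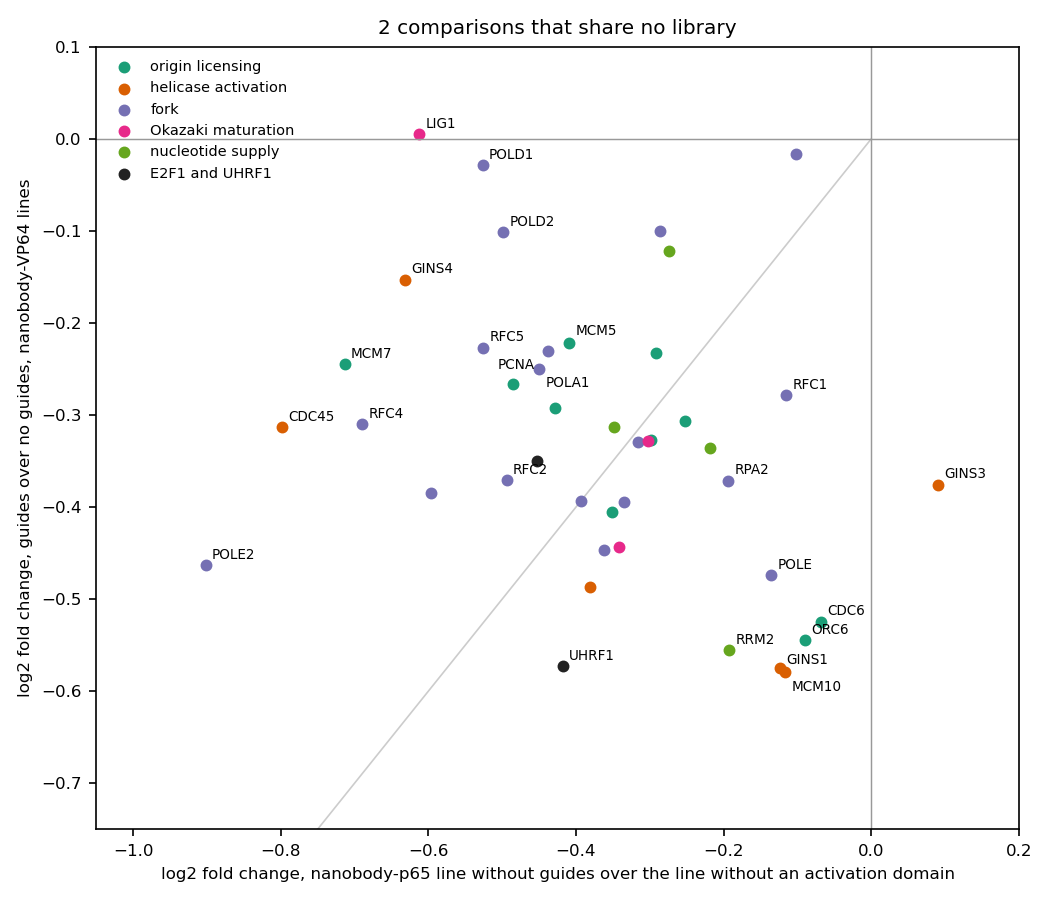
Log2 fold change with guides in the nanobody-VP64 lines (vertical axis) against that of the nanobody-p65 line without guides over the activator-free line (horizontal axis), 1 point per gene coloured by role, with the grey diagonal marking equal values. Named genes passed the test of the difference between steps. That test also used the libraries of both axes, so the named genes lie off the diagonal partly by selection. CDC6, ORC6, GINS1, MCM10, POLE and RRM2 lie at the lower right and LIG1, POLD1, POLD2 and GINS4 at the upper left.

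No member passed the test between the nanobodies in the full set of libraries. With guides, p65 against VP64 gave no call among the 43 genes by edgeR in either direction, while 4.20% of all genes were lower and 3.72% higher. At an unadjusted p under 0.05, CDT1 (-0.16 ± 0.0640) and LIG1 (-0.17 ± 0.0587) were lower with p65 and RFC2 (0.16 ± 0.0504) was higher, with adjusted p = 0.136, 0.0894 and 0.0636, and DESeq2 called none. LIG1 was called without library B of the VP64 guide line (-0.22, adjusted p = 0.0385). CDT1 and RPA1 were the 2 genes whose p65 guide libraries were all below the VP64 guide libraries, an order that 11.0% of all genes had. Without guides, p65 against VP64 gave no call either, where 1.72% of all genes were lower and 0.388% higher, and 4 genes were higher at an unadjusted p under 0.05. Among them were DNA2 (0.18 ± 0.0624), MCM6 (0.13 ± 0.0544) and MCM10 (0.14 ± 0.0611), and DESeq2 called none. The difference between the p65 and VP64 guide effects had 0 calls among the members (0.187% of all genes were lower and 0.769% higher), 1 gene at an unadjusted p under 0.05, and 0 calls by DESeq2. These missed thresholds do not show that the nanobodies act alike. The 95% intervals of the log2 differences reached from -0.30 to 0.38 with guides and from -0.21 to 0.40 without.

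Of the 43 genes, 36 had a RefSeq promoter window in the GRCh38.p14 table. An E2F-type word stood in 19 of the 36 windows (52.8%), against 570 of 10632 windows of tested genes (5.36%) and 917 of all 27305 windows (3.36%). The words lay in 6 of 8 licensing windows, 3 of 5 of helicase activation, 6 of 15 of the fork, 1 of 2 of maturation, 1 of 4 of nucleotide supply and both regulators. Their first bases ran from 187 bases before the start (MCM7) to 7 after it (CDC6). The CCAAT box, CCAAT on either strand, was in 21 of 36 windows (58.3%), against 36.9% of the windows of tested genes. The word TTTGAA, the core of the cell cycle genes homology region known from late cell cycle promoters, was in 1 of 36 (2.78%), against 9.47%.

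Members with and without the E2F-type word had similar medians, a difference that was not tested. With guides the 19 genes with it had a median log2 fold change of -0.35 in the VP64 lines and -0.41 in the p65 lines, with 18 lower in each. The 17 genes without it had medians of -0.33 and -0.37, with 14 and 15 lower. In the VP64 lines values ran from -0.57 to 0.01 among genes with the word and from -0.58 to -0.02 among those without. In the p65 lines they ran from -0.69 to -0.09 and from -0.67 to -0.07. The part of the word in these changes was not tested. Outside the members, 33.6% of 551 tested genes with the word were lower with guides in the VP64 lines and 33.9% in the p65 lines. The shares were 22.96% and 21.5% of 10045 genes without it. Median log2 fold changes lay close together, at -0.0824 and -0.0743 with the word and 0.0056 and -0.0065 without it. Only the members were left out of these sets, and the other pathway genes described next were not. An excess of lower genes among those with the word was also present without guides. In the guide-free lines over the activator-free line, 33.2% with the word were lower against 25.4% without it for VP64. For p65 the shares were 31.8% and 26.3%.

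Other genes of the pathway were taken from a list of 89 tested genes. With guides 59 of them were lower and 9 higher in the VP64 lines, and 64 lower and 6 higher in the p65 lines. Of all genes tested, 21.3% were lower and 19.3% higher in the VP64 lines, and 20.2% and 18.7% in the p65 lines. Among partners in licensing 4 of 8 fell with VP64 and 5 with p65, with MCM8 at -0.56 and -0.52, geminin (GMNN), the inhibitor of CDT1, at -0.45 and -0.48, and MCMBP, a chaperone of MCM subunits, at -0.34 and -0.41. Origin firing factors fell in 6 and 7 of 8 cases, among them DBF4, the activating subunit of the CDC7 kinase (-0.36 and -0.54), TICRR, which helps recruit CDC45 (-0.46 and -0.54) and TOPBP1 (-0.51 and -0.38). Further fork genes fell in 9 and 10 of 16 cases, with the checkpoint mediator CLSPN at -0.57 and -0.64 and POLE3, a subunit of polymerase epsilon, at -0.39 and -0.34. POLD4, the small subunit of polymerase delta, rose by 0.53 and 0.43. Chromatin assembly factors fell in 7 of 8 cases in each pair of lines, with the FACT subunits SUPT16H at -0.40 and -0.37 and SSRP1 at -0.25 and -0.24, and CHAF1A at -0.40 and -0.42. In the guide-free lines over the activator-free line, 57 of the 89 were lower and 12 higher with VP64, and 48 and 12 with p65. Of all genes, 24.0% were lower and 23.6% higher there with VP64, and 24.9% and 24.7% with p65. The further fork genes had 9 lower and 4 higher with VP64, and 7 and 2 with p65. Nucleotide enzymes outside the members divided, with 5 lower and 4 higher with VP64, and 4 and 4 with p65.

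With guides, nucleotide enzymes outside the members fell in 8 and 9 of 12 cases. The salvage kinase DCK was at -0.25 and -0.31 and the dCMP deaminase DCTD at -0.22 and -0.15. The mitochondrial kinase TK2 rose by 0.56 and 0.31. Of the E2F and retinoblastoma family 9 of 12 fell in each pair, with E2F2 at -0.92 and -0.64, E2F8 at -0.54 and -0.64 and the E2F partner TFDP1 at -0.30 and -0.31. All 10 mitotic genes fell in both, led by the proliferation antigen MKI67 (-0.81 and -0.79), CENPF (-0.67 and -0.70) and BUB1 (-0.40 and -0.43).

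Cyclins, cyclin-dependent kinases and their regulators were mixed, with 6 of 15 lower and 6 higher in the VP64 lines and 7 lower and 4 higher in the p65 lines. CDC25A, the phosphatase that activates CDK2, fell, at -0.76 and -0.69, cyclin E2 (CCNE2), at -0.78 and -0.81, and CDK2, at -0.18 and -0.32. Against these, cyclin A2 (CCNA2) rose by 0.29 and 0.30, and the CDK inhibitor p21 (CDKN1A) by 0.36 and 0.34, 2 genes picked out after their values were seen. In the guide-free lines over the activator-free line, CCNA2 was lower, at -0.37 with VP64 and -0.35 with p65, and CDKN1A was higher, at 0.56 and 0.43. RRM2B, the p53-inducible counterpart of RRM2 and also chosen after its values were seen, was higher there, at 0.57 and 0.67. RRM2 was at -0.27 and -0.19. RRM2B did not rise further with guides. It had 183.2, 186.0 and 180.6 CPM in the p65 guide line, all below the 226.8, 212.8 and 199.3 of the p65 guide-free line. In the VP64 lines its libraries overlapped, at 183.9, 190.2 and 195.2 CPM with guides and 188.6, 211.4 and 195.1 without.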

How the data were processed

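Total RNA of 5 MelJuSo lines was sequenced, with 3 libraries each. Reads were aligned with STAR and quantified with RSEM on hg38, per the submitters' processing notes. Their versions and settings, and whether counting used strand, are not stated in the sources used here. The deposited expected counts, TPM and effective lengths are RSEM's estimates per gene, per the file headers. The tables hold 58813 entries, of which 92 are spike-ins and were left out. Expected counts were rounded and fitted with edgeR 4.0.16 (R 4.3.3) by quasi-likelihood, with TMM factors of 0.983 to 1.014, filterByExpr (minimum count 10) and 1 coefficient per line over all 15 libraries. Benjamini-Hochberg adjustment covered 14961 genes in each comparison, at a threshold of 0.05. The biological coefficient of variation was 5.45%. Libraries totalled 15643705 to 23072512 counts. Pairs of libraries of the same line differed by a chi-square per degree of freedom of 2.445 to 9.837, more than counting noise alone gives.

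The tools were tested on simulated data. Alternatives were DESeq2 1.42.0 and its size factors, other filters (none, or a mean of 1 CPM), a replicate block, an effective-length offset, fits of only the libraries compared and omission of each library. The members and lists were chosen with earlier results of these data known. Library values are given for the 2 genes of each role with the largest guide effect, for E2F1, PCNA, MCM2 and RRM1, for genes missing the threshold in both guide comparisons, and for the 3 smallest p-values of the other comparisons. Up to 3 genes of each companion list are named by smallest p.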

Additional observations from a re-analysis of the deposited data

Results flagged for a closer look

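CCND1, cyclin D1, was a companion gene and no member. Its guide effect differed between the nanobodies, by -0.26 on the log2 scale for p65 minus VP64 (SE 0.0533, adjusted p = 0.0158 in edgeR's quasi-likelihood test). In the p65 lines it was lower with guides, at a mean of 929 CPM in the guide line against 1039 in the guide-free line (log2 fold change -0.16, adjusted p = 0.00154). In the VP64 lines it averaged 1194 CPM in the guide line against 1119 in the guide-free line (0.09, adjusted p = 0.0516). No replication gene showed such a difference between the guide effects, at the smallest adjusted p of 0.31. DCT, a melanoma marker, had guide effects that differed in the same way, by -1.08 on the log2 scale for p65 minus VP64 (SE 0.230, adjusted p = 0.0192). It averaged 0.993 TPM in the p65 guide line against 1.54 in the p65 guide-free line, and 1.35 TPM in the VP64 guide line against 0.893 in the VP64 guide-free line. The call was lost under the effective-length offset (adjusted p = 0.062) and without library B of the VP64 guide line, C of the VP64 guide-free line or B of the p65 guide-free line (0.0797, 0.0609 and 0.0603).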

How the results depend on the processing

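Under DESeq2 size factors, other low-count filters, the Wald test of DESeq2, an effective-length offset and fits of only the libraries compared, 28 to 37 genes were lower with guides in the VP64 lines and 36 to 39 in the p65 lines. In the guide-free lines against no activation domain 34 to 40 were lower with VP64 and 30 to 38 with p65. The lowest counts came with the effective-length offset. No member changed its direction past the threshold under any alternative run. Omitting 1 library at a time gave 34 to 38 and 37 to 39 genes lower with guides, 38 to 40 and 35 to 36 in the guide-free lines, and 0 to 1 lower for p65 against VP64 with guides. The step comparison held 7 to 10 and 9 to 15 genes in its directions, and 9 to 11 and 11 to 16 with 1 library omitted. Same-letter libraries of different lines had correlated deviations between -0.103 and 0.117, with 1 of 30 over 0.1. Between the VP64 and p65 guide lines they were 0.063, 0.117 and 0.042. These values cover all genes tested, and counting noise of weak genes can hide a shared batch. They do not settle whether the letters are paired. With the replicate letter as a block 37 and 39 genes were lower with guides and 39 and 38 in the guide-free lines. The block kept the same counts against the activator-free line, 43 in each guide line, and ended the step call of RFC1 (adjusted p = 0.0503). Effective-length values moved by over 1.5 times without losing the call for CDC45 in the VP64 lines (-0.50), MCM4 in the p65 lines (-0.59) and POLE in the p65 guide-free line (-0.38). LIG1 in the p65 guide line (-0.44) and RRM1 in the VP64 guide line (-0.32), both over the activator-free line, did so too. It further ended the guide calls of POLD3 and RFC5 in the VP64 lines (adjusted p = 0.127 and 0.0834) and RFC1 in the p65 lines (0.0905), the guide-free calls of MCM4 with VP64 (0.105) and PRIM2, RPA3 and DNA2 with p65 (0.057, 0.097 and 0.0583), and that of GINS4 in the p65 guide line over the activator-free line (0.0886). The cause was not tested. With 3 libraries per line, the intervals of the log2 differences between nanobodies had a median half-width of 0.12.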
